A study of Oryctolagus cuniculus with 6 samples.

Results

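The immediate early genes FOS, JUN, EGR1, NR4A2 and IER3, together with the MAP kinase phosphatase gene DUSP1, were followed in smooth muscle cells of the rabbit basilar artery. Members were the array probes whose gene name, or whose described full name, was that of 1 of these 6 genes. They came to 9 probes of 43603 on the array, and to 6 genes of 10021 that could be named. All 9 probes read well above background on all 6 arrays, so none was lost to the filter on dim probes. A further 5 probes carried the words for immediate early response 3 in their description but belonged to the gene IER3IP1, and were left out.

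The cells came from female New Zealand White rabbits on day 5 after surgery. In the ligated group both common carotid arteries were tied so that more blood runs through the basilar artery, and in the sham group the same arteries were exposed without being tied. Each group had 3 rabbits and 3 one-colour arrays, here called sham 1 to 3 and ligated 1 to 3. The labels give no genotype and no age, and do not say whether an array holds the RNA of 1 rabbit or of a pool, so that p-values measure the spread between arrays. In both groups the artery was perfused with 0.4 mg/ml elastase and 1 mg/ml collagenase for 45 min and the cells were then released by trituration. Immediate early genes respond within minutes to handling, and the part that this digestion has in any level given here was not tested.

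Immediate early genes are switched on by growth factors, stretch, injury and stress without any need for new protein, mostly through MAP kinases acting on serum response factor, the ternary complex factors and CREB. FOS and JUN proteins pair to form the transcription factor AP-1, EGR1 is a zinc finger transcription factor, and NR4A2 is an orphan nuclear receptor that works without a known ligand. DUSP1 is made in the same response and removes phosphate from p38, JNK and ERK kinases, which closes the loop, while IER3 is a small stress-induced protein tied to ERK signalling and cell survival.

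The probes are shown because every value below rests on what these 60 bases read. All are given 5′ to 3′ in the sense of the messenger RNA, in lower case. In NR4A2 probes 1 and 2 the capitals mark the 40 bases that both probes share, so these 2 readings are not independent. In EGR1 probe 1 the capitals mark the stop triplet that closes the open reading frame. The FOS probe is given by position only.
DUSP1: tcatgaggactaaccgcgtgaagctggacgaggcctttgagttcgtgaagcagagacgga
IER3: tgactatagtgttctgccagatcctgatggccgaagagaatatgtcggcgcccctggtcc
NR4A2 probe 1: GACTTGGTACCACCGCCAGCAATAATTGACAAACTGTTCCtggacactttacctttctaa
NR4A2 probe 2: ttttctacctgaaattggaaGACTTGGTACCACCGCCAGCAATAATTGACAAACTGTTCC
NR4A2 probe 3: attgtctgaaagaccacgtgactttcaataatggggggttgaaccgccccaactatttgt
JUN: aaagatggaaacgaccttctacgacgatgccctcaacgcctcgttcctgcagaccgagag
EGR1 probe 1: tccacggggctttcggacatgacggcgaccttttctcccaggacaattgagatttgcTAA
EGR1 probe 2: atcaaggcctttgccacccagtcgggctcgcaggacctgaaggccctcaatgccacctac
No other probe on the array had the same 60 bases as any of them.

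Positions are those of the array files, on the rabbit build oryCun2. The DUSP1 probe lies at chr3:53839249-53839308 on the minus strand. The IER3 probe lies at chr12:22766843-22766902 on the minus strand, and the files describe it as immediate early response 3-like while its gene number is that of IER3. The NR4A2 probes lie on the minus strand at chr7:95179631-95179690, chr7:95179651-95179710 and chr7:95179771-95179830. NR4A2 probe 1 also ends on a stop triplet that closes an open frame. The FOS probe lies at chr20:29860745-29860804 on the minus strand and the JUN probe, which the files call C-JUN, at chr13:107997091-107997150 on the plus strand. EGR1 has probe 1 at chr3:20741216-20741272 and probe 2 at chr3:20740541-20740600, both on the plus strand. The interval that the files give for EGR1 probe 1 spans 57 bases against the 60 of the probe. Exon and intron borders of this build were not used here.

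Between 58.7% and 63.7% of probes were well above background on an array, and no spot was saturated. Slide 1 carried the sham group and slide 2 the ligated group, and the effects of slide and ligation cannot be told apart anywhere below. The array's 10 spike-in controls also differed: before scaling, 6 of them were dimmer on each ligated array than on any sham array, and after scaling 3 were. Over all 10 the median difference after scaling was -0.81 in log2. Scaled means over the 8 bright controls were 3.71, 4.26 and 4.94 on ligated 1 to 3, and 4.95 to 5.11 on the sham arrays. Sham 3 was the only array scanned on scan day 2. The arrays did not group by label: the SD of the difference over tested probes was 0.381 between sham 2 and sham 3, but 1.28 between sham 1 and each of them, against 0.918 between sham 1 and ligated 2. Results are therefore given with and without single arrays and with sham 2 and sham 3 averaged into 1.

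Values are log2 signals relative to the 75th percentile of their own array. A probe's level depends on how well it binds, so levels are compared between arrays and never between genes. A gene was called changed when its adjusted p (limma, Benjamini-Hochberg over 27410 tested probes) was under 0.05. By that rule 2290 probes passed, 8.35% of those tested, and 5 of the 9 member probes did. Taking for each gene its brightest probe, DUSP1 and IER3 were higher after ligation, NR4A2 was lower, and FOS, JUN and EGR1 did not pass. Over all 7574 named genes 6.21% passed as higher and 2.68% as lower. Among passing probes 68.3% were higher, a share that was 52.2% with median centring, 57.4% with normexp without high-background spots and 99.0% on spike-in scaling. On that last scaling the whole array shifted, with a median probe at 0.76 in place of 0.01, so its values are given beside each gene that passed. The members' counts were 2 and 1 of 6, and nothing was read from a share over so few genes.

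**Figure D1:**
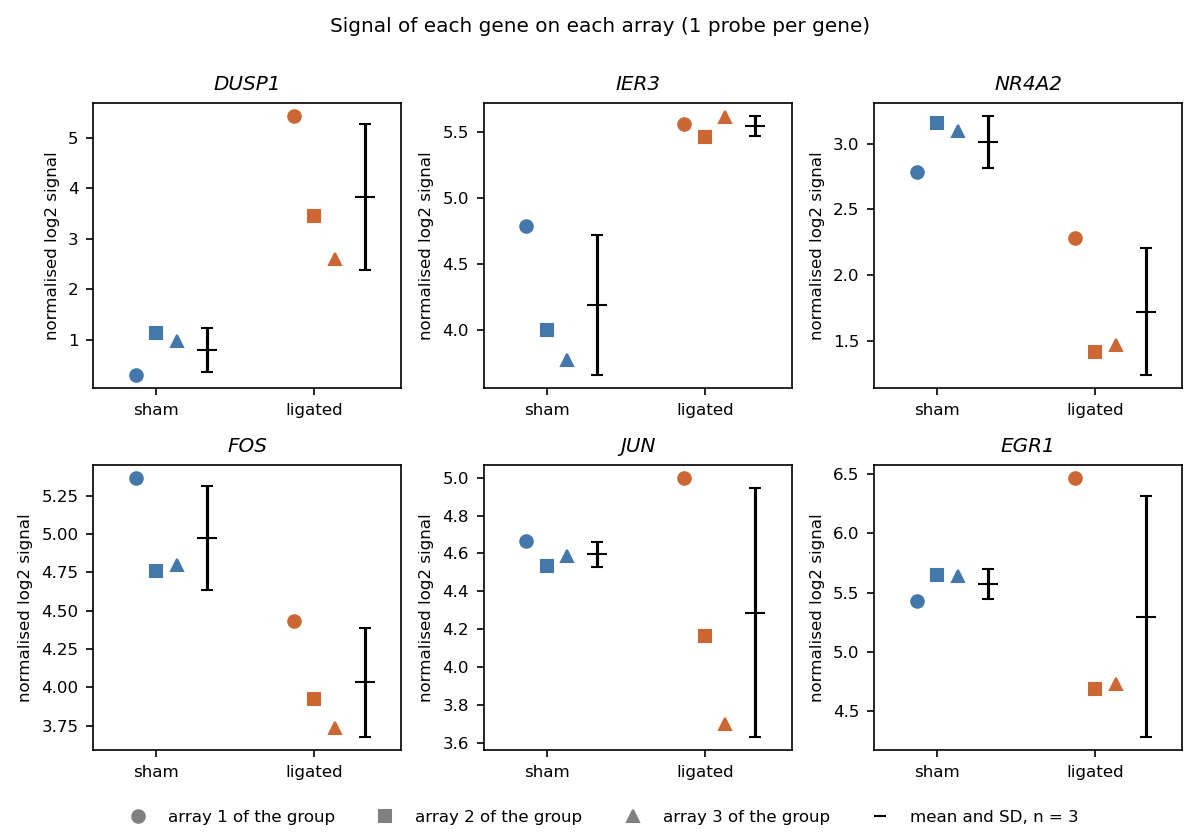
Normalised log2 signal (vertical axis, relative to the 75th percentile of the array) of each of the 6 genes on 3 sham and 3 ligated arrays, 1 symbol per array, with the group mean and SD beside them. DUSP1 and IER3 lie higher and NR4A2 and FOS lower on every ligated array than on any sham array, while JUN and EGR1 overlap; each panel has its own scale.

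DUSP1, the phosphatase that switches MAP kinases off, had the largest difference of the 6 genes. In sham arteries its log2 signal was 0.30, 1.13 and 0.97, and after ligation it was 5.43, 3.44 and 2.61. All 3 ligated arrays lay above all 3 sham arrays, and the ligated arrays were spread more widely, with ligated 1 standing 2.82 above ligated 3. The group means were 0.80 ± 0.44 and 3.83 ± 1.45 (SD, n = 3). The change was 3.03 ± 0.70 (SE), an 8.15-fold rise, with an adjusted p of 0.0484 (limma). Its call ended when sham 1 (adjusted p = 0.0896), sham 2 (0.122), sham 3 (0.142) or ligated 2 (0.111) was left out, and with sham 2 and sham 3 averaged (0.130). Without ligated 1, the highest array, the change was 2.22 and the adjusted p 0.0449 (limma). In all the call was lost under 13 of 21 alternatives, among them quantile normalization (0.0621), the percentile over probes detected on all arrays (0.0548) and trend and robust variances (0.0586), and on spike-in scaling the change was 3.78 (0.0206).

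IER3, the small stress-induced survival protein, was the other gene that rose. Its log2 signal was 4.79, 4.005 and 3.78 in sham arteries and 5.56, 5.46 and 5.61 after ligation. Here the ligated arrays were nearly level, within 0.15 of each other, and the sham arrays ran over 1.01 with sham 1 the highest. The means were 4.19 ± 0.53 and 5.55 ± 0.08 (SD, n = 3), and the groups did not overlap. The change of 1.35 ± 0.29 (SE), or 2.56-fold, had an adjusted p of 0.0395 (limma). The call held without sham 1, where the change was 1.65 (adjusted p = 0.0135, limma). It ended without sham 2 (0.143), sham 3 (0.140), ligated 1 (0.107), ligated 2 (0.105) or ligated 3 (0.0745), and with sham 2 and sham 3 averaged (0.138). The call was lost under 11 of 21 alternatives in all, and on spike-in scaling the change was 2.10 (0.0234).

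NR4A2, the orphan nuclear receptor, fell after ligation on all 3 of its probes. Probe 1, the brightest, read 2.79, 3.16 and 3.09 in sham arteries and 2.28, 1.42 and 1.47 after ligation. Every ligated array was lower than every sham array, with ligated 1 nearest to the sham group. The means were 3.01 ± 0.20 and 1.72 ± 0.48 (SD, n = 3), and the level fell by 1.29 ± 0.29 on the log2 scale (SE), a 2.44-fold fall with an adjusted p of 0.0431 (limma). Probe 3, which shares no bases with the other two, read 1.23, 1.42 and 1.54 in sham and 0.61, -0.28 and -0.41 in ligated arteries, and fell by 1.42 (adjusted p = 0.0395, limma). Probe 2, which overlaps probe 1, fell by 1.38 (adjusted p = 0.0401, limma). The call of probe 1 held without ligated 1, where the change was -1.57 (adjusted p = 0.0267, limma). It ended without sham 1 (0.0545), sham 2 (0.151), sham 3 (0.155), ligated 2 (0.120) or ligated 3 (0.0808), and with sham 2 and sham 3 averaged (0.149). On spike-in scaling no NR4A2 probe passed, with changes of -0.54 (adjusted p = 0.466), -0.63 (0.403) and -0.67 (0.388) on probes 1 to 3 (limma), and the call of probe 1 was lost under 14 of 21 alternatives in all.

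**Figure D2:**
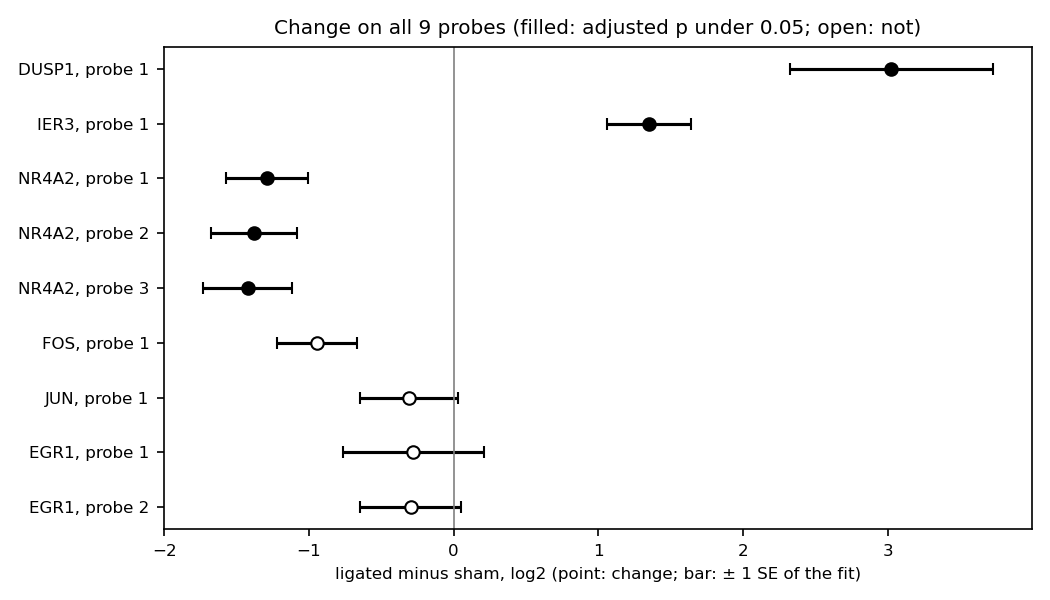
Change of each of the 9 probes in log2 (horizontal axis, ligated minus sham), with bars of 1 SE of the limma fit and n = 3 arrays per group; filled points have an adjusted p under 0.05. The 3 NR4A2 probes lie between -1.42 and -1.29, and both EGR1 probes lie within 1 SE of 0.

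FOS, the partner that gives AP-1 its stability on DNA, read 5.37, 4.76 and 4.80 in sham arteries. After ligation it read 4.43, 3.93 and 3.74. The groups did not overlap, with a gap of 0.33 between the lowest sham and the highest ligated array. The means were 4.98 ± 0.34 and 4.03 ± 0.36 (SD, n = 3). The difference of -0.95 ± 0.27 (SE) did not pass, with an adjusted p of 0.0841 (limma). Under the alternatives it passed with array weights (0.0461) and with trend and robust variances (0.0493), and on spike-in scaling the difference was -0.19 (0.786). Groups that did not overlap, in either direction, were found for 4 of the 6 genes and for 35.4% of all named genes.

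JUN, which pairs with FOS in AP-1, read 4.66, 4.53 and 4.59 in sham arteries and 5.00, 4.17 and 3.70 after ligation. The sham arrays were within 0.13 of each other, and the ligated arrays lay on both sides of them over a range of 1.30. The difference was -0.31 ± 0.34 (SE; adjusted p = 0.584, limma), and its sign turned when arrays were scaled on the spike-in controls. EGR1 gave the same picture on its brighter probe, with 5.43, 5.65 and 5.64 in sham arteries and 6.47, 4.68 and 4.73 in ligated arteries. Ligated 1 stood above all sham arrays and the other 2 ligated arrays below them. The difference on that probe was -0.28 ± 0.49 (SE; adjusted p = 0.740, limma). Its sign turned with quantile normalization, in the deposited value table, on spike-in scaling, and without ligated 2 or ligated 3. Probe 2 of EGR1 read 1.28, 1.49 and 1.31 in sham and 1.71, 1.12 and 0.36 in ligated arteries, a difference of -0.30 ± 0.35 (SE; adjusted p = 0.608, limma).

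The ligated arrays did not stand in 1 order for all genes. Ligated 1 was the highest ligated array for DUSP1, NR4A2, FOS, JUN and EGR1, whether the gene was higher or lower than in sham, and ligated 3 was the highest for IER3. Over all named genes tested, ligated 1 was the highest ligated array for 31.6%. The distance from ligated 1 to ligated 3 was 2.82 for DUSP1, 1.74 for EGR1, 1.30 for JUN, 0.81 for NR4A2 and 0.69 for FOS. The spike-in controls also had their lowest level on ligated 1, with a mean log2 signal of 11.2 over the 8 bright controls, against 12.2 on ligated 2 and on ligated 3 and 12.6 to 12.9 on the sham arrays. The part of that difference in the members' values was not tested.

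**Figure D3:**
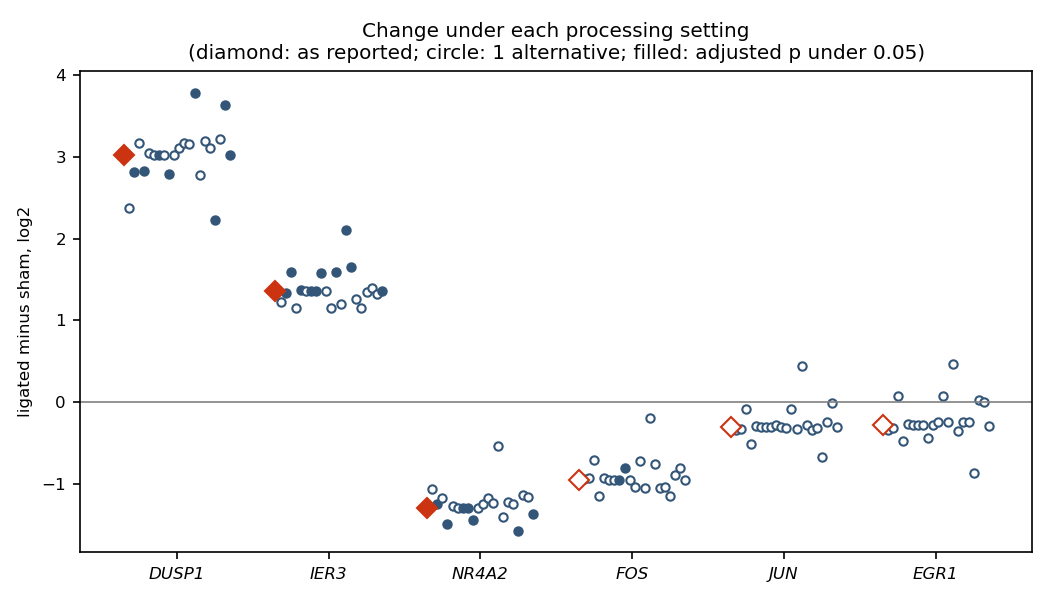
Change of each gene in log2 (vertical axis, ligated minus sham) as reported (diamond) and under each of 21 alternative settings (circles), filled where the adjusted p was under 0.05. DUSP1 and IER3 stay above 0 and NR4A2 and FOS below 0 under all alternatives run, while JUN and EGR1 lie on both sides of 0.

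Other genes of the same response were read from 4 lists, of other immediate early genes, other dual specificity phosphatases, the kinases and factors of the MAP kinase, SRF and CREB route, and heat shock genes. Together the lists hold 116 genes, of which 73 had a named probe and 69 were tested. In all 3 passed as higher and 2 as lower, 5 of 69, which is near the shares over all named genes (6.21% higher and 2.68% lower). The median change over the 69 was 0.13 in log2, against 0.01 over all named genes and -0.29 over the 6 members.

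The list of other immediate early genes holds 38, of which 25 had a named probe and 23 were tested. FOSB, JUNB, JUND and EGR3 were among those without a named probe. Of the 23 tested, 1 passed as higher and 1 as lower, and 21 did not pass, with a median change of 0.09. An unadjusted p under 0.05 (limma) was found for 9 of the 23 and for 2102 of the 7574 named genes. All ligated arrays lay above all sham arrays in 8 of the 23 and below them in 1, against 1347 and 1335 of the 7574. EGR2 is among the 23, the 9 and the 8. It was dim and well above background on only 1 of 3 sham arrays, so it passed the filter through the ligated group. HBEGF, a membrane-anchored growth factor of the EGF family, read -2.36, -2.44 and -2.40 in sham and -1.24, -0.49 and -0.78 in ligated arteries. All ligated arrays were higher, and the rise was 1.56 ± 0.23 (SE; adjusted p = 0.0143, limma). RGS2, which shortens signalling through Gq-coupled receptors in vascular muscle, read 3.76, 3.45 and 3.64 in sham and 2.88, 2.61 and 2.56 in ligated arteries. It fell by 0.93 ± 0.19 (SE; adjusted p = 0.0353, limma). The call of HBEGF ended without sham 2 (0.0688) and without sham 3 (0.0702), and that of RGS2 whichever array was left out (0.0539 to 0.145). On spike-in scaling RGS2 was at -0.18 (adjusted p = 0.780) and HBEGF at 2.31 (0.00942), and with normexp without high-background spots HBEGF was at 0.92 (0.0154, limma).

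DUSP1 was the only dual specificity phosphatase that passed among those tested. None of 6 others passed in the limma fit, while 2 had an unadjusted p under 0.05, and the median change of the 6 was 0.88. DUSP6, the cytoplasmic ERK phosphatase, read -2.46, -2.12 and -2.23 in sham and 0.71, -1.11 and -0.68 in ligated arteries, a difference of 1.91 ± 0.46 (SE; adjusted p = 0.0550, limma). DUSP5, the nuclear ERK phosphatase, differed by 1.29 ± 0.32 (SE; adjusted p = 0.0590, limma). In both genes all ligated arrays were above all sham arrays. DUSP6 passed under 7 alternatives and DUSP5 under 4, with the lowest adjusted p at 0.0272 and 0.0320 (limma). With normexp their differences were smaller, at 0.92 and 0.64, and with normexp without high-background spots at 1.14 (0.0696) and 0.60 (0.103). Ligated 1 was the highest ligated array in 5 of the 6 phosphatases, as in DUSP1. The difference between DUSP1 and the others was not tested.

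The list of the MAP kinase, SRF and CREB route holds 47 genes, of which 30 had a named probe and 28 were tested. SRF itself had no named probe. Of the 28 tested genes 1 passed. ELK4, a ternary complex factor that carries the ERK signal to serum response elements, rose by 1.40 ± 0.32 (SE; adjusted p = 0.0474, limma), a call that ended whichever array was left out (0.0570 to 0.165). With normexp without high-background spots ELK4 was at 0.68 (adjusted p = 0.0931), with normexp on all spots at 0.68 (0.789), and on spike-in scaling at 2.15 (0.0361, limma). MAP2K6, the kinase upstream of p38, differed by -1.17 ± 0.36 (SE; adjusted p = 0.0951, limma). It was at -0.03 (0.975) with normexp, -0.58 (0.162) with normexp without high-background spots and -0.42 (0.492) on spike-in scaling, and passed under 2 alternatives. The median change of the list was 0.13.

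Heat shock genes are another group that responds to cell handling. Of 12 tested, 1 passed as higher and 1 as lower, with a median change of -0.01. HSPA5, the chaperone BiP of the endoplasmic reticulum, rose by 0.95 ± 0.18 (SE; adjusted p = 0.0275, limma), and HSF1, the heat shock transcription factor, fell by 1.19 ± 0.26 (SE; adjusted p = 0.0401, limma). The call of HSPA5 held in 1 of 6 fits without 1 array (adjusted p from 0.0438 to 0.124) and that of HSF1 in none (0.0557 to 0.125). On spike-in scaling HSF1 was at -0.44 (adjusted p = 0.516) and HSPA5 at 1.70 (0.0499, limma).

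**Figure D4:**
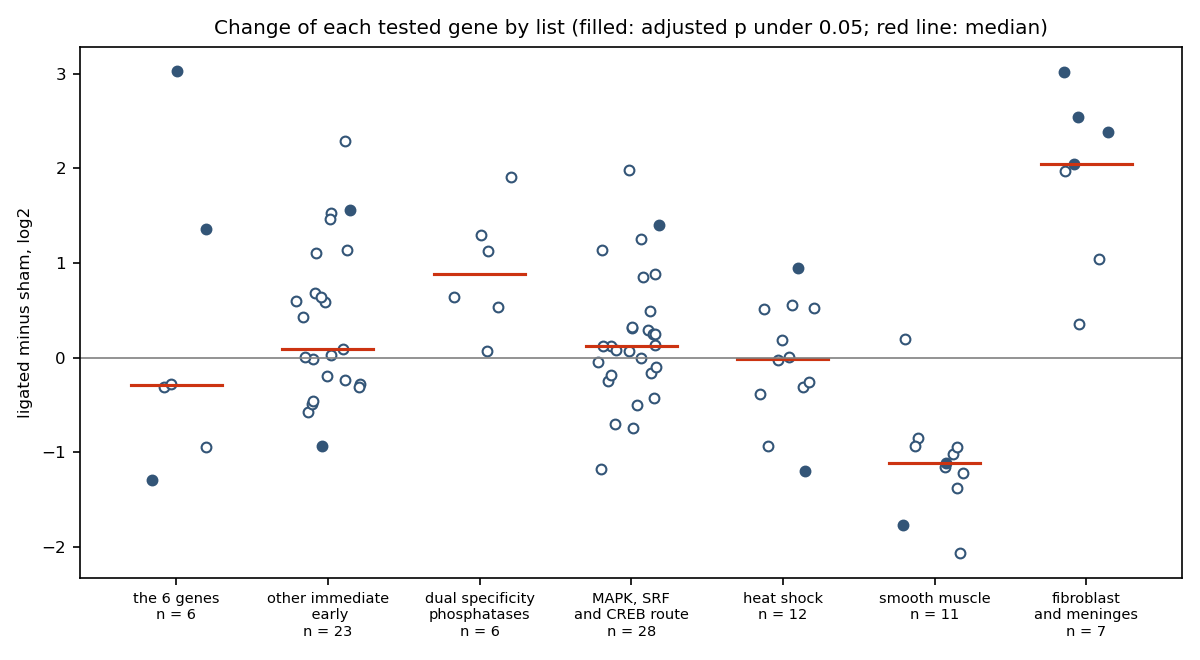
Change of each tested gene in log2 (vertical axis, ligated minus sham) for the 6 genes, the 4 response lists and markers of smooth muscle and of fibroblasts and meninges; filled points have an adjusted p under 0.05 and the red line is the median. The response lists have medians from -0.01 to 0.88, smooth muscle markers a median of -1.11 and fibroblast and meningeal markers 2.04.

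The cell markers of the preparation moved between the groups in the same comparison. All 11 smooth muscle markers with a probe were well above background on all arrays. Of them 2 passed as lower and none as higher, with a median change of -1.11, and 9 had every ligated array below every sham array, as did 1335 of the 7574 named genes. Their summed level, in units of the 75th percentile of the array, ran from 1581 to 2627 in sham and from 620.1 to 1552 in ligated arteries. Of 7 fibroblast and meningeal markers 4 passed as higher, with a median of 2.04 and sums from 95.6 to 111 in sham and from 192 to 277 in ligated arteries. None passed among 5 endothelial markers, 5 macrophage markers and 5 neutrophil markers (limma; 0, 1 and 2 at an unadjusted p under 0.05). The 2 neutrophil markers include CAMP, which was well above background on 1 of 3 sham and 3 of 3 ligated arrays. CAMP thus passed the filter through the ligated group, and nothing is read from its p. Sums over the macrophage markers ran from 6.66 to 12.99 in sham and from 6.67 to 21.3 in ligated arteries. Of 6 lymphocyte, 2 erythroid and 2 neuronal and glial markers tested none passed either (limma; 0, 0 and 1 at an unadjusted p under 0.05), and the erythroid sums ran from 135 to 274 in sham and from 20.0 to 428 in ligated arteries. In such bulk RNA, fewer cells of a type and less RNA per cell cannot be told apart. The part of these markers in the members' differences was not tested.

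For each gene the closest patterns were sought among 6656 named genes above background on all arrays, by the root mean square distance of the centred log2 values over the 6 arrays. The nearest to DUSP1 were PDGFRB, the beta receptor for platelet-derived growth factor, at 0.285 and FAM168B at 0.289. PDGFRB read -1.40, -1.38 and -1.41 in sham and 2.98, 1.08 and 0.08 in ligated arteries, with ligated 1 the highest as in DUSP1. The nearest to IER3 were TYMS, the thymidylate synthase of DNA synthesis, at 0.0846 and the laminin chain LAMB1 at 0.130. DLG3 at 0.149 and FBXO32, a muscle ubiquitin ligase, at 0.156 lay nearest to NR4A2. LGALSL at 0.0912 and AKAP1 at 0.0976 lay nearest to FOS, CRTC3 at 0.0596 and BICRAL at 0.115 to JUN, and CEP97 at 0.162 and RSBN1 at 0.199 to EGR1. These distances describe 6 arrays and carry no test.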

How the data were processed

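Total RNA of digested basilar artery smooth muscle cells was labelled with Cy3 and read on 6 one-colour Agilent arrays, 3 sham and 3 ligated. Agilent Feature Extraction 10.7 turned the scans into spot signals, per the submitters' processing notes. Per the file headers, the processed signal is an intensity corrected for background and spatial trend inside each array. The raw spot and background signals are deposited intensity values, and the spot marks are deposited flags of 0 or 1. The deposited value table, used as an alternative, is in log2 units and its normalization was not given in the sources read here. Its changes nearly equalled those of quantile normalization (DUSP1 3.16 in both), with 2116 and 2121 probes passing. These alternatives are therefore not independent of each other.

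Outlier spots were left out (2 to 19 per array), repeated spots were averaged in log2, and each array was set relative to its own 75th percentile. Probes well above background on at least 3 of 6 arrays were tested in R 4.3.3 with limma 3.58.1 (moderated variances, two-sided, Benjamini-Hochberg over all tested probes, threshold 0.05), which was tested on simulated data. Probes were named through a rabbit table of RefSeq symbols (mOryCun1.1): 22592 had 1 symbol, 23 several and 20988 none. The brightest tested probe stands for a gene. Every member and its probes are named. Of each list the passing genes are named and, where fewer than 2 passed, the 2 with the smallest p. The 2 nearest patterns are given per gene. The members and lists were chosen with earlier results of these data known. The labels do not say whether arrays with the same replicate number were paired. Deviations of such arrays from their group means correlated at 0.43, -0.57 and 0.58. With 3 arrays per group these values cannot settle it, and the main fit used no pairing. Alternatives were other background corrections, scalings, filters, variance models, array weights, blocks, the deposited table, sham 2 and sham 3 averaged, and leaving out each array. As only sham 3 was scanned on day 2, the scan day block equals leaving out sham 3, and both count among the 21. Scaling on the spike-in controls was added after seeing the data.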

Additional observations from a re-analysis of the deposited data

How the results depend on the processing

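With 3 arrays in a group the calls of DUSP1, IER3 and NR4A2 sit close to the threshold, and the number of calls moved with the processing. FOS did not pass as reported (adjusted p = 0.0841, limma). JUN (0.584) and EGR1 (0.740) lay far from the threshold and passed under none of the 21 alternatives. Of the 6 genes 3 passed as reported and 0 passed with normexp background correction, with no filter on dim probes, with a replicate block, with scan day as a block, or with sham 2 and sham 3 averaged. The scan day block gave the same fit as leaving out sham 3, so it is no separate check. With normexp without the 55 spots of high background 3 passed. There were 1 with quantile normalization, 1 with the percentile over probes detected on all arrays, 1 in the deposited table, and 0 to 2 when 1 array was left out. With the replicate block the adjusted p was 0.0706 for DUSP1, 0.0688 for IER3 and 0.0958 for NR4A2 (limma). DUSP1 kept its sign in all 21 alternatives, with changes from 2.22 to 3.78, IER3 from 1.15 to 2.10, NR4A2 from -1.57 to -0.54 and FOS from -1.15 to -0.19. EGR1 turned to 0.0762 with quantile normalization, to 0.0776 in the deposited table and to 0.47 on spike-in scaling, and ran from -0.865 to 0.0284 when 1 array was left out. JUN turned to 0.44 on spike-in scaling. That scaling moved the median of all probes to 0.76, against 0.01 as reported, -0.19 with median centring and 0.21 with normexp. On it NR4A2 was at -0.54 (adjusted p = 0.466, limma) and DUSP1 at 3.78 (0.0206). Over all probes 2290 passed as reported, 0 with normexp (615 at an unadjusted p under 0.05) but 2238 with normexp without the high-background spots, 1524 with no filter, 5488 with array weights, 1295 with the replicate block, 552 with scan day as a block, 595 with sham 2 and sham 3 averaged, and 552 to 2269 when 1 array was left out. Of the 69 listed genes 5 passed as reported, 0 with normexp, scan day or averaging, 5 with normexp without the high-background spots, 2 with quantile normalization, the deposited table or the replicate block, 1 with no filter, 8 with the filter on all 6 arrays, with trend and robust variances or with the mean of a gene's probes, 15 with array weights, and 0 to 4 when 1 array was left out. Without the high-background spots DUSP1, IER3 and NR4A2 passed under normexp, while ELK4, which passed as reported, did not (adjusted p = 0.0931, limma). The causes of these moves were not tested.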

Other observations

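Among close relatives of the members, chosen here after their values were seen, NR4A1 and NR4A3 are the other nuclear receptors of the family of NR4A2. NR4A1 read 2.94, 2.53 and 2.51 in sham and 3.03, 2.16 and 1.95 in ligated arteries, a difference of -0.28 ± 0.32 (SE; adjusted p = 0.600, limma). NR4A3 read 2.11, 1.84 and 1.95 in sham and 2.69, 1.99 and 1.26 in ligated arteries, a difference of 0.01 ± 0.36 (SE; adjusted p = 0.990, limma). In both the groups overlapped and ligated 1 was the highest array of all. Whether NR4A2 differs from them in its response was not tested.

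FOSL2, a FOS-related partner in AP-1, read 0.06, 0.04 and -0.07 in sham and 1.26, -0.42 and -0.54 in ligated arteries, so that ligated 1 lay above and the other ligated arrays below all sham arrays, the same arrangement as in EGR1. EGR2, a relative of EGR1, was dim and well above background on 1 of 3 sham and 3 of 3 ligated arrays, so it passed the filter through the ligated group and no difference is given.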
